A study of Homo sapiens with 11 samples.

Results

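The baseline of 2 human epithelial cell lines was described from untreated (UT) cells only. H3K4me3 at gene promoters was measured in BEAS-2B cells by ChIP-Seq (1 deposited set of values), and expression was measured in RT4 cells by RNA-Seq (2 replicates). The members are the 24657 genes whose symbol stands in both sets of values, of 26237 genes with a promoter level and 28252 genes with an expression level. BEAS-2B cells derive from bronchial epithelium, are immortalized and do not form tumors, and were grown in DMEM with serum. RT4 cells derive from a bladder cancer that is not invasive and were grown in McCoy's 5A medium with serum. Neither culture received NiCl2, which the study gave to other cultures of both lines. The UT ChIP-Seq values are a single set, so that promoter levels have no replicate check. Whether this set pools the biological replicates on which ChIP was done is not stated in the sources used here, so its depth may be that of 1 library or of several. Because the mark was measured in one line and the RNA in the other, differences between lines and differences between mark and RNA cannot be told apart at any gene. No contrast of conditions exists among these 3 sets of values, genes are not replicates, and no p-values are given.

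H3K4me3 is the trimethylated form of lysine 4 of histone H3. It is placed around transcription start sites (TSS) by the SET1 and MLL methyltransferase complexes, which are drawn to DNA rich in unmethylated CpG, and it is known as a mark of promoters that are active or ready to be used. Genes of basic cell functions carry it in nearly all cell types, while genes of differentiation carry it in the cell types that use them. RNA-Seq reads the transcript that is present, whatever the mark.

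Promoters of 5 genes are shown because they stand for the combinations of mark and expression described here. Each is the 250 bases before the start site on GRCh38 as given by RefSeq, 5′ to 3′ on the strand of the gene, with each CG dinucleotide, the letters C then G, in capitals. GAPDH (chr12:6535014-6535263, plus strand) was marked in BEAS-2B cells and expressed in RT4 cells. S100P (chr4:6693628-6693877, plus strand) and UPK1B (chr3:119173348-119173597, plus strand) were unmarked and expressed. FBN2 (chr5:128538246-128538495, minus strand) was marked and listed at 0 in RT4 cells, and ALB (chr4:73404037-73404286, plus strand), the albumin gene of hepatocytes, was neither marked nor expressed.
GAPDH: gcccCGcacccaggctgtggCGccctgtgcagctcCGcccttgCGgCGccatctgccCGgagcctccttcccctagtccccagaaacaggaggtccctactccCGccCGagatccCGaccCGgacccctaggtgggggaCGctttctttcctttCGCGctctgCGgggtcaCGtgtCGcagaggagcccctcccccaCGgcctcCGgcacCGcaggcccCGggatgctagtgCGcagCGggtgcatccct
S100P: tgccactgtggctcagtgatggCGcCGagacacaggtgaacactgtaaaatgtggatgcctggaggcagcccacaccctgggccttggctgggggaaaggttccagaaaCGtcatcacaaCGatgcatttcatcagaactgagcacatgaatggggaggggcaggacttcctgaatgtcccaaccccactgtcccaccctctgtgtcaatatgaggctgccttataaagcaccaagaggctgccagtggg
UPK1B: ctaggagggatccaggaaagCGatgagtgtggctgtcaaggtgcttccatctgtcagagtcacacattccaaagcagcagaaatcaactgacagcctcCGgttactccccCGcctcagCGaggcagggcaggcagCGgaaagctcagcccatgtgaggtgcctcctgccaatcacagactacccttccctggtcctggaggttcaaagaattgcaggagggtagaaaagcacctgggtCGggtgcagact
FBN2: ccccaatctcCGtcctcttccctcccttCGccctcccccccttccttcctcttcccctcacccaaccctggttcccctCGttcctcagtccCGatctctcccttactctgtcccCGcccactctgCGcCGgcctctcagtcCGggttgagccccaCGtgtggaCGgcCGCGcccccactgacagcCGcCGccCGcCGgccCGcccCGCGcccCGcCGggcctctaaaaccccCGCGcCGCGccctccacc
ALB: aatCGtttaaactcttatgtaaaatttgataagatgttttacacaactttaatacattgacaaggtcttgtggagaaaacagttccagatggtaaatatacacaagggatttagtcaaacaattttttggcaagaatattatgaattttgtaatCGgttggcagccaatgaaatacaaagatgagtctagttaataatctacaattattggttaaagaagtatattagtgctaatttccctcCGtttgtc
The GAPDH stretch held 22 CG and the FBN2 stretch 25, against 4 for S100P, 6 for UPK1B and 3 for ALB. The same stretch of VIM, a gene marked in BEAS-2B cells and not expressed in RT4 cells, is not shown and held 8. The RefSeq start of GAPDH lies 747 bases from its GENCODE start, and those of the other genes are the same in both. CG reads the same on both strands, and 93.2% of the 22031 promoters of this length held at least 1. The median was 23 CG in marked and expressed genes (n = 5495), 21 in marked and silent genes (n = 255), 7 in unmarked and expressed genes (n = 606) and 3 in unmarked and silent genes (n = 3141).

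In UT BEAS-2B cells, promoters fell into a low and a high population. The level of a promoter is the RPKM (reads scaled to window length and library depth) of a window of 2 kb on each side of the TSS. The levels are whole multiples of 0.00881 RPKM, the worth of 1 read, which gives a depth of 28385715 reads and a floor of 0.0264 RPKM for 3 reads. Levels of 3 RPKM or more are called marked, levels below 0.6 RPKM unmarked, and levels between them intermediate. Of the 26237 promoters, 11667 (44.5%) were marked, 11526 (43.9%) unmarked and 3044 (11.6%) intermediate. The median was 1.57 RPKM, with quartiles of 0.238 and 6.41, so that the median itself lies in the sparse range between the populations. Marked promoters held 92.0% of all promoter reads and unmarked promoters 2.74%. The intervals given for single promoters cover counting error only.

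The strongest promoter was that of IGF2BP2, an RNA-binding protein of growth control, at 25.8 RPKM (2934 reads, 95% interval 24.9 to 26.8). Other strong promoters were those of MGME1 at 24.2 RPKM, SNX5 at 24.0 and IFT80 at 22.5. They also included SNORD2, ACTG1, SMC4, DYRK1A and METTL4, at 20.8 to 21.9 RPKM. Several of these windows hold the start of a second gene. The starts of MGME1 and SNX5 lie 224 bases apart, those of IFT80 and SMC4 425 bases, and METTL4 and NDC80, 52 bases apart, have the same level of 20.8 RPKM. In RT4 cells, 7 of these 9 genes were expressed, from 4.51 TPM for IFT80 (4.45 and 4.58 TPM in replicates 1 and 2) to 3835 TPM for ACTG1, a cytoplasmic actin (3902 and 3769). The exceptions were SNORD2, a small nucleolar RNA listed at 0, and IGF2BP2, at 0.15 and 0.02 TPM.

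In UT RT4 cells, expression was counted in TPM (a share of all transcripts that accounts for their length), estimated with RSEM from totals of 18065667 and 25721265 estimated counts. Genes with at least 1 TPM in both replicates are called expressed and genes below 0.1 TPM in both are called silent. By this rule, 12592 of 28252 genes (44.6%) were expressed and 11698 (41.4%) were silent, while 696 passed 1 TPM in only 1 replicate. The replicates had a median difference of 1.27-fold over the expressed genes, and 1019 of these (8.09%) differed by more than 2-fold. The 10 most abundant transcripts took 8.32% of TPM in replicate 1 and 9.15% in replicate 2. Abundant transcripts among the joined genes were S100A6 (9869 and 13570 TPM), GAPDH (10658 and 11911 TPM), RPS27, RPL13A, RPLP0, RPS29, RPL19, S100A2 and FTH1. Of these, 5 are ribosomal proteins, S100A6 and S100A2 are calcium-binding proteins, and FTH1 is the ferritin heavy chain. In BEAS-2B cells, 8 of these 9 promoters were marked, at 5.84 to 14.2 RPKM. The S100A2 promoter was at 0.969 RPKM (110 reads, 95% interval 0.804 to 1.17) although the gene had 5766 and 7481 TPM in RT4 cells.

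**Figure D1:**
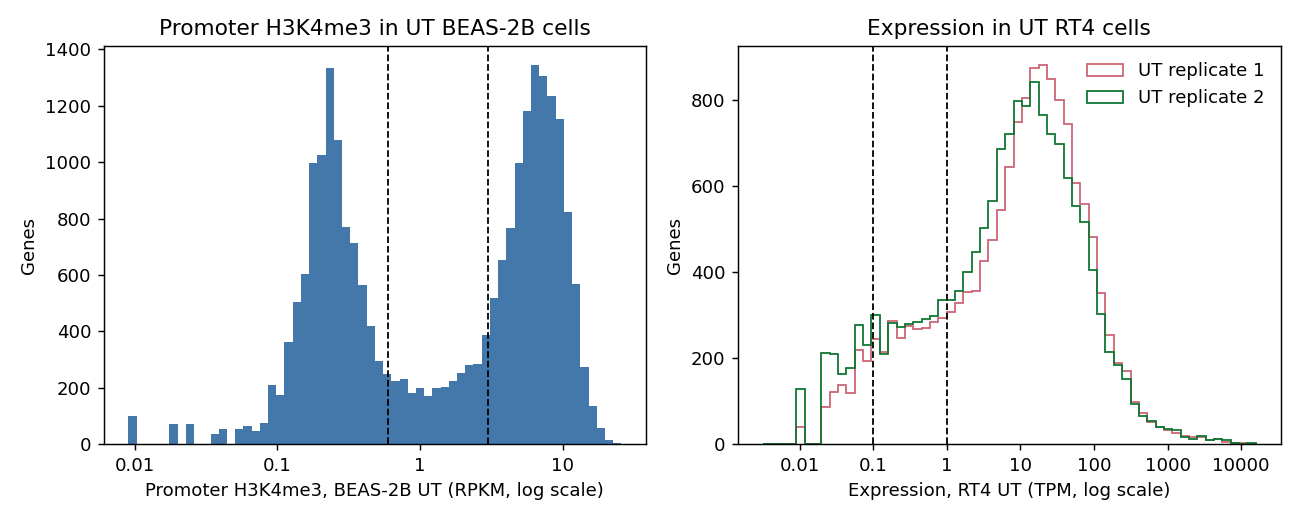
Numbers of joined genes by promoter H3K4me3 in UT BEAS-2B cells (left, RPKM on a log scale) and by expression in both UT RT4 replicates (right, TPM on a log scale); values of 0 are not drawn. Dashed lines mark 0.6 and 3 RPKM and 0.1 and 1 TPM. Promoters form a low and a high population with few between, and the outlines of the RT4 replicates lie close to each other.

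Promoter H3K4me3 in BEAS-2B cells and expression in RT4 cells went together across genes, mainly as a difference between the promoter populations. Spearman's rho over the 24657 joined genes was 0.662 with the mean TPM, 0.666 with replicate 1 and 0.656 with replicate 2. It is a description, since all genes share the same 3 sets of values and some share a promoter window. Within the marked genes alone, rho was 0.233 (n = 11116), within the intermediate genes 0.273 (n = 2851) and within the unmarked genes 0.0434 (n = 10690). Restricted to genes with at least 1 TPM, it was 0.314.

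Median expression was listed at 0 for promoters below 0.6 RPKM and was 0.035 TPM at 0.6 to 1 RPKM and 0.575 TPM at 1 to 3. It was 7.37 TPM at 3 to 5 RPKM (n = 2606), 17.3 at 5 to 10 (n = 6487) and 25.7 at 10 to 20 (n = 2003). The share of genes expressed was 12.7% at 0.1 to 0.6 RPKM, 24.2% at 0.6 to 1 and 42.6% at 1 to 3. It was 74.1% at 3 to 5, 86.3% at 5 to 10 and 88.6% at 10 to 20. This share rose most between the classes of 1 to 3 and 3 to 5 RPKM, while median expression also rose above 5 RPKM. The spread between replicates was small beside the rise in share, with 45.2% and 44.1% of genes at 1 TPM or more at 1 to 3 RPKM. Read from the other side, the median promoter level was 0.238 RPKM for the 8225 genes listed at 0 TPM and 3.33 RPKM for genes at 1 to 3 TPM. It was 6.95 RPKM at 30 to 100 TPM and 9.03 RPKM for the 135 genes at 1000 TPM or more.

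**Figure D2:**
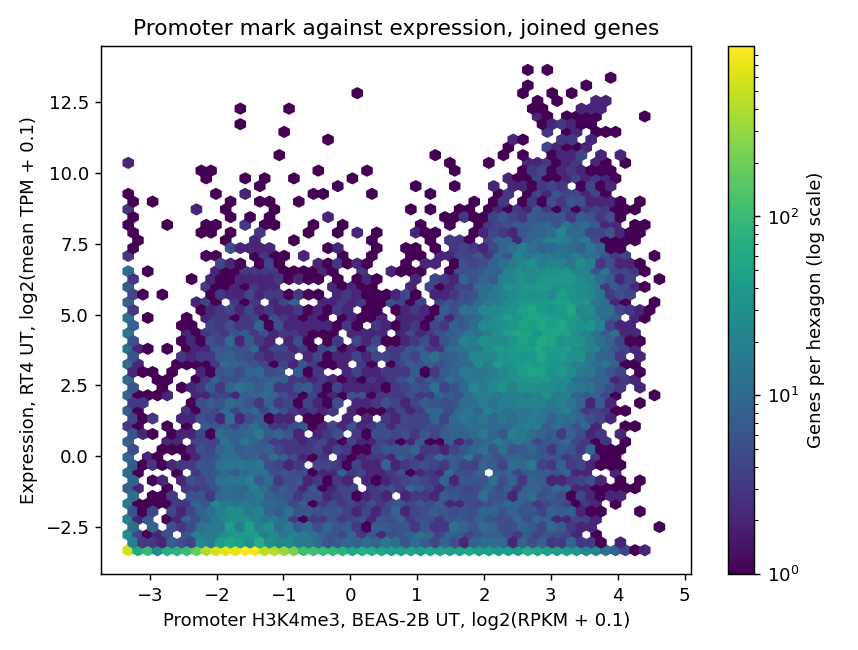
Each joined gene by promoter H3K4me3 in UT BEAS-2B cells (x axis, log2 of RPKM + 0.1) and mean expression in UT RT4 cells (y axis, log2 of TPM + 0.1), as the number of genes per hexagon on a log colour scale. Most genes lie in a cloud of low mark at the bottom, where genes listed at 0 TPM form a line, or in a cloud of high mark and high expression.

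**Figure D3:**
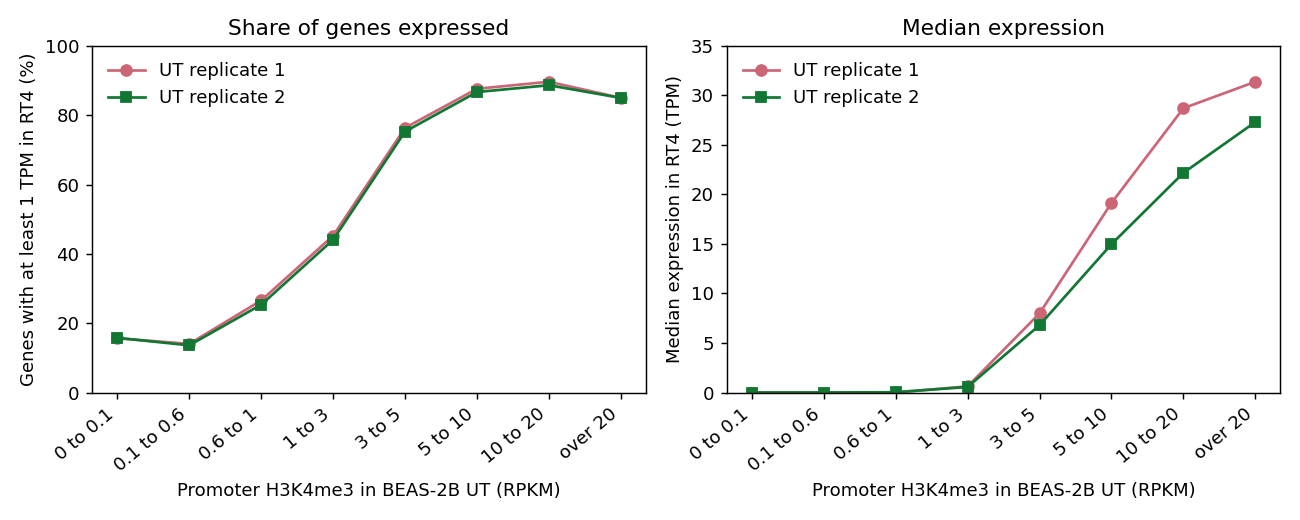
Share of genes with at least 1 TPM (left, percent) and median TPM (right) in each UT RT4 replicate, for joined genes grouped by promoter H3K4me3 in UT BEAS-2B cells (x axis, RPKM). The points of the replicates nearly coincide on the left, where the share levels off above 5 RPKM, while on the right replicate 1 lies above replicate 2 from 3 RPKM on.

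Of the joined genes, 45.1% were marked, 43.4% unmarked, 47.8% expressed and 38.8% silent, which is the background for each count that follows. Of the 11116 marked genes, 9319 (83.8%) were expressed, 990 were low and 807 (7.26%) silent. The median of marked genes was 17.4 TPM in replicate 1 and 13.4 TPM in replicate 2. Of the 10690 unmarked genes, 7615 (71.2%) were silent, 1684 were low and 1391 (13.0%) were expressed. Intermediate genes were divided, with 1066 (37.4%) expressed and 1134 (39.8%) silent. Counted from expression, 79.1% of the 11776 expressed genes were marked in the other line and 11.8% were unmarked, and 79.7% of the 9556 silent genes were unmarked. Among 18154 protein-coding genes, 90.1% of marked promoters belonged to expressed genes and 3.24% to silent ones.

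Genes of protein synthesis, glycolysis and the proteasome were mostly marked and expressed. Of 83 ribosomal protein genes, 80 were both, with a median of 9.13 RPKM and 2323 TPM, against 1.74 RPKM and 0.825 TPM over all joined genes. RPL26, a protein of the large subunit, had the highest level of them, 16.0 RPKM, with 3235 and 2623 TPM. RPL10L and RPL3L, tissue-restricted relatives, were neither, at 0.167 and 0.0970 RPKM and below 0.2 TPM in both replicates. The remaining unmarked member was at 0.009 RPKM, below the floor of 3 reads, and was not called expressed. Neither value is read here as absence of the mark or of the transcript. A gene at 0 in the expression values can be a failed estimate and is called only listed at 0.

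All 17 glycolysis enzymes were expressed and 13 were marked (median 8.68 RPKM and 271.6 TPM). GAPDH, the dehydrogenase of the pathway, had 14.2 RPKM (1614 reads, 95% interval 13.5 to 14.9). PKM, the pyruvate kinase, had 9.20 RPKM with 3584 and 2897 TPM, and LDHB, a lactate dehydrogenase, 7.53 RPKM with 3270 and 2318 TPM. The unmarked members were ALDOC at 0.308 RPKM, HK1 at 0.343 RPKM, with start sites spread over 48905 bases, and GPI, listed at 0 RPKM. HK1 had 121.8 and 82.9 TPM in RT4 cells, and GPI 274.6 and 268.6. The start sequence of GPI has a copy on an alternate contig of hg38. All 14 core proteasome subunits were expressed, at 52.1 to 577.7 TPM, and 11 were marked (median 7.07 RPKM). PSMA6 (0.0970 RPKM) and PSMB3 (listed at 0) were unmarked, with means of 440.7 and 446.7 TPM. Annotated start sites of PSMA6 are spread over 32200 bases, and the start sequence of PSMB3 has a copy on an alternate contig. The part of start choice and alternate contigs in these levels was not tested.

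The markers of the lines differed by group. Of 10 epithelial markers, 9 were expressed in RT4 cells but only 3 were marked in BEAS-2B cells (median 1.62 RPKM and 236.7 TPM). KRT8 and KRT18, the paired keratins of simple epithelia, were marked at 7.33 and 7.26 RPKM, and RT4 cells had 1682 and 1877 TPM of KRT8 and 1120 and 1483 TPM of KRT18. KRT19, another simple-epithelial keratin, was at 0.432 RPKM (49 reads, 95% interval 0.326 to 0.570) but at 4697 and 5099 TPM. CDH1, the E-cadherin of adherens junctions, was intermediate at 1.02 RPKM (116 reads), with 292.3 and 175.1 TPM. EPCAM, an epithelial adhesion protein, was at 2.21 RPKM with 251.4 and 227.8 TPM. CLDN4, a tight junction claudin, was unmarked at 0.247 RPKM (28 reads) with 731.3 and 529.9 TPM. CLDN7, another claudin, stood apart in RT4 cells at 0.4 and 0.05 TPM, with 2.28 RPKM in BEAS-2B cells.

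Of 10 mesenchymal markers, the pattern was the opposite, as 9 were marked in BEAS-2B cells and 2 were expressed in RT4 cells (median 8.05 RPKM and 0.165 TPM). CDH2, the N-cadherin, had the highest level of them at 14.6 RPKM (1654 reads, 95% interval 13.9 to 15.3) and 0.3 and 0.2 TPM in RT4 cells. SPARC, a matrix glycoprotein, had 10.8 RPKM with 0.09 and 0.17 TPM. ZEB1, a repressor of E-cadherin, had 10.3 RPKM with 0.04 TPM in each replicate. VIM, the vimentin of intermediate filaments, had 8.95 RPKM (8.41 to 9.52) with 0.1 and 0.06 TPM. TWIST1, a transcription factor of mesoderm, had 7.36 RPKM and was listed at 0 TPM. SNAI2 (15.1 and 10.9 TPM) and FN1, the fibronectin (3.43 and 2.03 TPM), were the expressed members, marked at 3.68 and 4.55 RPKM. COL1A2, a fibrillar collagen chain, was unmarked at 0.476 RPKM and listed at 0 TPM.

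All 12 urothelial markers were expressed in RT4 cells, with a median of 123.4 TPM, and 5 were marked in BEAS-2B cells. Uroplakins are the plaque proteins of the bladder surface, and the 5 measured were all unmarked. UPK2 had 0.176 RPKM (20 reads) with 284.6 and 402.4 TPM, and UPK3B 0.0530 RPKM (6 reads) with 293.1 and 312.9 TPM. The start sequence of UPK3B has a copy on an alternate contig of hg38, and the part of that copy in its level was not tested. UPK1B had 0.291 RPKM with 105.9 and 86.2 TPM, UPK3A 0.379 RPKM with 71.4 and 95.4 TPM, and UPK1A 0.211 RPKM with 70.6 and 92.5 TPM. Of the listed transcription factors of urothelial differentiation, GRHL3 was intermediate and the other 5 were marked in the bronchial line. TBX3 had 9.27 RPKM, FOXA1 4.74, ELF3 4.55, PPARG 4.34 and GATA3 3.98 RPKM, and their means in RT4 cells were 113.4, 133.5, 298.6, 205.5 and 216.8 TPM. The 5 uroplakins thus lay below 0.6 RPKM and these regulators, GRHL3 included, at or above it. Over all joined genes, 43.4% were unmarked and 45.1% marked. The TPM ranges of the uroplakins and the 5 marked regulators overlapped.

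None of 11 airway markers was marked in BEAS-2B cells, which carry a bronchial label (median 0.282 RPKM). NKX2-1, the regulator of lung fate, was the highest at 2.76 RPKM (313 reads), followed by FOXJ1, of ciliated cells, at 1.55. The secretory genes SCGB1A1, MUC5AC and MUC5B were at 0.159 to 0.282 RPKM, and the basal cell genes TP63 and KRT5 at 0.388 and 0.220. RT4 cells expressed TP63 (118.0 and 90.5 TPM) and KRT5 (2.22 and 1.65 TPM). No marker of blood (6), endothelium (3) or hepatocytes (3) was marked in BEAS-2B cells or expressed in RT4 cells. The blood markers summed to 0.73 and 0.1 TPM, and PTPRC was listed at 0 RPKM. Among 4 neuronal markers, SYT1 was expressed (3.49 and 3.03 TPM) and none was marked.

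**Figure D4:**
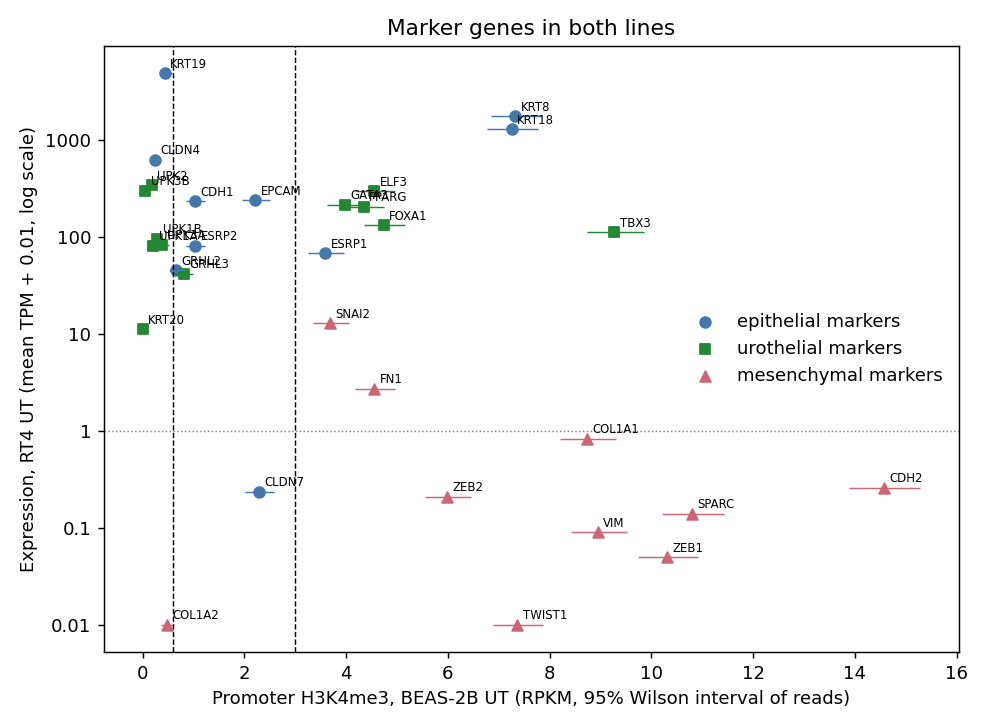
Epithelial, urothelial and mesenchymal markers by promoter H3K4me3 in UT BEAS-2B cells (x axis, RPKM, bars are 95% Wilson intervals of the reads) and mean expression in UT RT4 cells (y axis, mean TPM of 2 replicates + 0.01, log scale). Dashed lines are at 0.6 and 3 RPKM and the dotted line at 1 TPM. Of the mesenchymal markers, 7 of 10 sit at the lower right, with SNAI2 and FN1 above 1 TPM and COL1A2 at the left. Uroplakins and KRT20 sit at the upper left. KRT8, KRT18 and the marked urothelial transcription factors sit at the upper right, with GRHL3 between the dashed lines.

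Longer lists of junction and matrix genes were also divided. Of 25 epithelial junction genes, 22 were expressed and 12 marked (median 2.61 RPKM and 30.4 TPM). JUP, the plakoglobin of desmosomes, was marked at 5.21 RPKM with 594.8 and 530.8 TPM, and CLDN1 at 11.9 RPKM with 252.0 and 175.9 TPM. RAB25, a GTPase of apical recycling, was unmarked at 0.238 RPKM with 315.2 and 341.3 TPM. SPINT2, an inhibitor of epithelial surface proteases, was intermediate at 0.907 RPKM with 986.5 and 931.2 TPM. DSC3, a desmocollin of stratified epithelia, was marked at 9.35 RPKM and listed at 0 TPM. Of 32 genes of the matrix and its cells, 19 were marked and 11 expressed (median 4.59 RPKM and 0.36 TPM). The type IV collagen genes COL4A1 and COL4A2, whose starts are 127 bases apart, had 12.3 and 12.4 RPKM and at most 0.02 TPM. AXL, a receptor kinase, had 11.4 RPKM with 0.1 and 0.11 TPM, and CAV1, of caveolae, 8.80 RPKM with 0.63 and 0.52 TPM. THBS1, thrombospondin, was both marked (6.64 RPKM) and expressed, though its replicates were far apart at 139.7 and 38.5 TPM.

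Among the 1391 expressed genes with an unmarked promoter, 106 exceeded a mean of 100 TPM and 1155 were protein-coding. The 12 highest protein-coding genes were KRT19, FABP4, S100P, CST1, B2M, MIF, EEF1D, GPX2, GNAS, FDFT1, S100A9 and DHRS2. FABP4, a fatty acid carrier and PPARG target, had 0.211 RPKM (24 reads, 95% interval 0.142 to 0.315) with 4679 and 4941 TPM. S100P, a calcium-binding protein (chromosome 4 from 6693878 to 6697170), also held 24 reads, with 3981 and 3333 TPM. CST1, a cystatin, had 0.423 RPKM with 2616 and 3238 TPM. GPX2, an epithelial glutathione peroxidase, had 0.114 RPKM (13 reads) with 1185 and 1230 TPM. S100A9, a protein of inflamed and squamous epithelium, had 0.229 RPKM with 1031 and 901.5 TPM. These promoters lie in the low population, while 1463 of all joined genes exceed a mean of 100 TPM.

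Others on the list are genes that most cells use, and technical values stand beside them. GNAS, the stimulatory G protein subunit, was at 0.599 RPKM and its annotated start sites are spread over 68263 bases. FDFT1, squalene synthase, was at 0.132 RPKM with start sites over 26208 bases. Start sites more than 2 kb apart were annotated for 56.4% of the 1155 unmarked expressed protein-coding genes and for 46.9% of 8891 marked ones, and which start the authors took for a gene is not given in the sources used here. B2M, MIF and EEF1D have a copy of their start sequence on an alternate contig of hg38. B2M, the light chain of MHC class I, had 43 reads (0.379 RPKM) with 1709 and 1396 TPM. MIF and EEF1D were listed at 0 RPKM with 1127 and 1503 TPM and 1215 and 1339 TPM.

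A level of exactly 0 RPKM was listed for 962 promoters, of which 904 were joined and 170 (18.8%) were expressed in RT4 cells. Of the 793 such joined genes with a position, 524 (66.1%) had the 60 bases at their start on an alternate contig as well. Among the 22361 positioned genes above 0 RPKM, 151 (0.675%) did. Genes used by most cells are among them, with YWHAE (546.7 TPM), PSMB3, SSBP1 (369.9 TPM), TAF15 (333.9 TPM) and PRPF8 (102.7 TPM) chosen after their values were seen. Such values are given only as listed at 0, and the part of the alternate contigs in them was not tested. Without them, 1221 of 9786 unmarked genes (12.5%) were expressed. Other genes, ABCF1 and AGPAT1 among them, were listed at 0 in both RPKM and TPM and so counted as unmarked and silent.

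The reverse group, marked in BEAS-2B and silent in RT4, held 807 genes, of which 320 were protein-coding. The 12 protein-coding genes of the group with the highest mark were CDKN2A, IGF2BP1, SHOX2, TNIK, UTS2B, FBN2, ECE2, FKBP10, NR4A3, CLDN11, COL4A2 and COL4A1. IGF2BP1, an RNA-binding protein of fetal growth and a relative of IGF2BP2 (chromosome 17 from 48997385 to 49056145), had 16.0 RPKM (1816 reads, 95% interval 15.3 to 16.7) with 0 and 0.05 TPM. SHOX2, a homeobox factor (chromosome 3 from 158095905 to 158106420), had 15.8 RPKM with 0 and 0.06 TPM. TNIK, a kinase, had 14.9 RPKM with 0 and 0.01 TPM. FBN2, a fibrillin of elastic microfibrils (chromosome 5 from 128257909 to 128659185), had 13.8 RPKM (13.1 to 14.5) and was listed at 0 TPM in both replicates. FKBP10, a collagen chaperone, had 13.0 RPKM with 0.04 and 0.02 TPM. Annotated start sites were spread over 121364 bases for FBN2, 234697 for TNIK and 6575 for FKBP10, and over 361 for IGF2BP1 and 702 for SHOX2. The FBN2 stretch shown above lies inside the gene span given here.

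Neighbours share some of these windows. The start of UTS2B lies 1132 bases from that of CCDC50, which had 12.3 RPKM with 9.99 and 8.39 TPM, and FKBP10 lies 1055 bases from P3H4, at 12.9 RPKM with 7.11 and 5.82 TPM. An expressed gene started within 2 kb for 38.5% of the 715 positioned genes of the group, for 15% of its 320 protein-coding genes and for 19.5% of 9185 marked and expressed genes. Among unmarked and silent genes, this was 0.670%. Short RNAs made up part of the group, as 192 of 193 marked miRNA genes and 78 of 92 marked snoRNA genes were silent. SNORD2, at 21.9 RPKM and listed at 0 TPM, lies 1219 bases from the start of EIF4A2, a translation factor with 20.4 RPKM and 295.8 and 255.5 TPM. Whether RNA of this size was kept in the RT4 libraries was not tested.

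On the short arm of chromosome 9, neighbouring marked promoters were silent together. CDKN2A, which encodes the p16 and ARF inhibitors of the cell cycle (GRCh38 chromosome 9 from 21967752 to 21995301), had 17.6 RPKM (2000 reads, 95% interval 16.9 to 18.4) and was listed at 0 TPM. The antisense gene CDKN2B-AS1 had 17.1 RPKM, MTAP, of methionine salvage, 9.20, CDKN2B, another cell cycle inhibitor, 7.88, and DMRTA1 4.90 RPKM. All 5 were listed at 0 estimated counts in both replicates, as was MIR31HG at 10.2 RPKM on one side and the neuronal gene ELAVL2 at 2.09 RPKM on the other. CDKN2B-AS1 starts at 21994139, inside the span of CDKN2A, so its window may share reads with that of CDKN2A. Annotated start sites of CDKN2A are spread over 23969 bases. Further out, KLHL9 had 6.48 RPKM and 12.7 and 5.42 TPM (693 and 489 estimated counts), and TUSC1 had 4.19 RPKM and 21.1 and 15.9 TPM (476 and 590). The run of MTAP, CDKN2A, CDKN2B and DMRTA1 was the longest on the autosomes when marked protein-coding genes are taken in order of position, with 4 silent genes. The next longest run held 3 genes (ATRNL1, GFRA1 and HSPA12A on chromosome 10), and 14 runs held 2. These genes were listed for their position with earlier results known, and gene copy number was not analysed here.

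**Figure D5:**
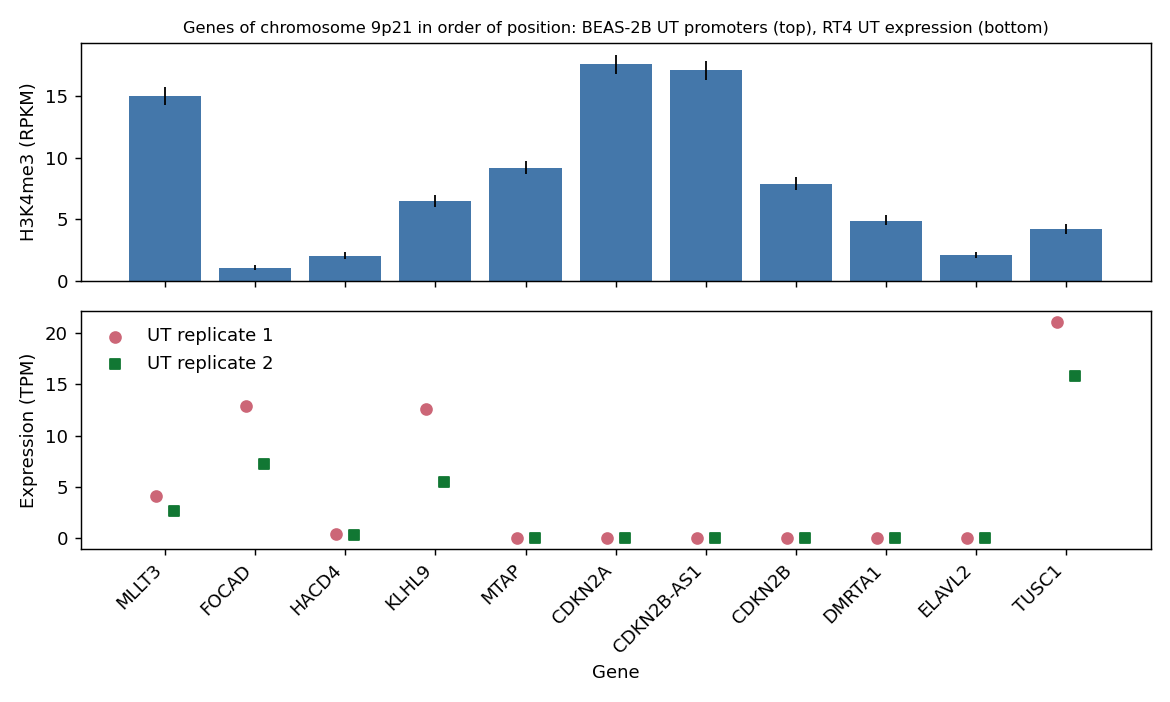
Promoter H3K4me3 in UT BEAS-2B cells (top, RPKM, bars start at 0, error bars are 95% Wilson intervals of the reads) and expression in both UT RT4 replicates (bottom, TPM) for genes of the short arm of chromosome 9 in order of position; interferon genes, short RNAs and further genes are left out. From MTAP to ELAVL2 all points lie at 0 TPM, while KLHL9 and TUSC1 on the sides are above 5 TPM.

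Of 64 developmental transcription factors, 39 were unmarked and 39 silent, and 25 were both. Of the 64, 13 were marked and 15 expressed (median 0.406 RPKM and 0 TPM). PITX1, a factor of hind limb and mouth development, was both, at 12.3 RPKM with 49.5 and 41.5 TPM. IRX1, another homeobox factor, was marked at 11.3 RPKM and listed at 0 TPM. EVX1 and MSX2, homeobox factors as well, were unmarked at 0.211 and 0.449 RPKM but had 45.4 and 39.5 TPM and 38.9 and 39.2 TPM. Of the 39 clustered HOX genes, which set position along the body axis, 27 were expressed, 13 were marked and only 7 were both. HOXD genes were at 0.220 to 1.02 RPKM, with HOXD1 at 68.7 and 58.6 TPM, HOXD8 at 19.2 and 11.5 and HOXD9 at 15.3 and 13.6. In the HOXC cluster, HOXC4, HOXC5 and HOXC6 share 1 value of 6.65 RPKM (755 reads) and were below 0.6 TPM in both replicates. HOXB9 was marked at 9.62 RPKM with 0.17 and 0.1 TPM.

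Base composition went with both measures. The CpG ratio (observed over expected from base content, 500 bases on each side of the GENCODE start) was computed for 23154 joined genes (93.9%). Its Spearman correlation was 0.627 with promoter level and 0.558 with expression. Below a ratio of 0.2, 3.16% of promoters were marked and 10.2% of genes expressed, and at 0.8 to 1 these shares were 78.1% and 78.3%. The median ratio was 0.803 for marked and expressed genes (n = 9185), 0.718 for marked and silent genes (n = 715), 0.487 for unmarked and expressed genes (n = 1302) and 0.259 for unmarked and silent genes (n = 6867). Within a range of the ratio, the share expressed was higher in marked than in unmarked genes. At 0.6 to 0.8, 86.6% of 4460 marked genes and 23.7% of 1199 unmarked genes were expressed, and at 0.2 to 0.4, 47.0% of 315 and 10.1% of 3456.

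Across the autosomes, rho was 0.610 (chromosome 17) to 0.723 (chromosome 6), and 34.1% to 53.4% of promoters were marked. Over the 6 RT4 libraries, including 4 of cells given NiCl2, rho was 0.656 to 0.671 with the UT promoter levels. It was 0.652 to 0.668 with those of BEAS-2B cells given 100 μM NiCl2 for 6 weeks (Ni-E), and 0.629 to 0.649 with those of nickel-washed-out cells (Ni-W). These values share libraries and were not tested against each other.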

How the data were processed

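H3K4me3 ChIP-Seq of UT BEAS-2B cells (1 deposited set of values) and RNA-Seq of UT RT4 cells (2 biological replicates, per the study's methods) were used. ChIP-Seq reads of 50 nucleotides were aligned by the authors with BWA (hg38) and redundant reads reduced to 1 copy. No peak calling was done, and the authors' deposited values are RPKM over promoters (2 kb to each side of the TSS). All levels were whole multiples of 1 step within 0.0005 RPKM, from which reads and depth were recovered, with 95% Wilson intervals of reads. Intervals and floors cover counting error only, as reads carry no molecular identifiers. The deposited RNA-Seq values are RSEM's estimated counts, FPKM and TPM, as the authors made them. The methods describe STAR and hg19, while the submitters' processing notes list hg38, and the build of the deposited RSEM values is not given in the sources used here. The deposited TPM values were used for all results, the deposited FPKM values in an alternative and the deposited estimated counts for depth and for genes listed at 0.

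Genes were joined by identical symbol. No test was run, because 3 sets of values of 2 lines and 2 assays hold no contrast of conditions. Named genes were the members of fixed lists (cell type markers, junction, matrix, glycolysis, proteasome, ribosomal, developmental, HOX, histone, keratin, ZNF, olfactory receptor and cancer-testis genes, and genes of 9p21), the 10 highest promoters, the 10 highest transcripts, and the 12 highest protein-coding genes that were expressed and unmarked or silent and marked. Some genes that this rule names are not reported here. The members and lists were chosen with earlier results of these data known. Positions, biotypes and start sites are from GENCODE 44 on GRCh38 for 24028 of 26237 genes (91.6%), of which some were matched through older symbols of RefSeq. The recovery of reads, rho and the counts of classes were tested on simulated data. Tools were Python 3.11.15, with scipy 1.17.1 for correlations, pandas 2.3.3 and numpy 2.4.6 for tables, and matplotlib 3.10.9 for drawing. Alternatives were other thresholds, subsets of genes, joins through older symbols, FPKM, Pearson correlations and each replicate left out. ChIP input libraries and BEAS-2B RNA-Seq were not analysed here.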

Additional observations from a re-analysis of the deposited data

How the results depend on the processing

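No paired analysis was possible because the 3 sets of values hold no contrast between groups with shared replicate numbers. Values without a test were compared with the SD between values from each RT4 replicate alone, which was 0.00748 for rho and 2.81 TPM for the median of marked genes. The share of marked promoters, which has no replicate, was compared with a binomial interval over promoters, which are not independent. Of 66 alternative values, 53 moved by more than these measures. Part of this is fixed by definition. A looser threshold can only raise the share of genes that pass it. Asking 1 replicate instead of both can only raise the share expressed or silent. The values with 1 replicate left out also set the SD they were compared with. With marked genes from 1 RPKM, 52.8% of promoters were marked, 77.5% of marked genes were expressed, 11.4% were silent and their median was 11.985 TPM, and from 5 RPKM these were 33.96%, 86.8%, 6.00% and 19.0 TPM. With unmarked genes below 0.3 RPKM, 12.1% of them were expressed and 8.37% of expressed genes were unmarked, and below 1 RPKM 13.8% and 13.5%. With expressed genes from 0.5 TPM, 47.7% of genes, 86.5% of marked and 15.7% of unmarked genes were expressed, with 13.4% of expressed genes unmarked, and from 5 TPM these were 33.9%, 68.7%, 7.39% and 8.71%. Of marked genes, 6.41% were silent below 0.05 TPM and 11.5% below 0.5 TPM. Among protein-coding genes, 54.4% of promoters were marked, 60.7% of genes were expressed, 90.1% of marked and 19.0% of unmarked genes were expressed, 10.5% of expressed genes were unmarked, 3.24% of marked genes were silent and the median of marked genes was 18.9 TPM. With 1 gene kept per 4 kb, rho was 0.680, 86.9% of marked and 13.7% of unmarked genes were expressed, 12.3% of expressed genes were unmarked and 5.35% of marked genes were silent. Through older symbols, which added 817 pairs, 11.7% of expressed genes were unmarked. The Spearman correlation was 0.535 for genes above 0 in both, 0.314 from 1 TPM and 0.380 from 1 RPKM, and Pearson's r was 0.653 on log2(value + 1) and 0.679 on log2(value + 0.1). With 1 replicate left out at a time, 45.5% to 46.1% of genes were expressed, rho was 0.656 to 0.666, 84.4% to 85.4% of marked and 13.96% to 14.3% of unmarked genes were expressed, 12.5% to 12.6% of expressed genes were unmarked, 8.26% to 8.41% of marked genes were silent and the median of marked genes was 13.4 to 17.4 TPM. Leaving out the promoters listed at 0, an alternative chosen after seeing the data, gave 46.2% of promoters marked, a rho of 0.672, 12.5% of unmarked genes expressed and 10.5% of expressed genes unmarked. The causes of the other movements were not tested. Depth limits single promoters below about 3 reads (0.0264 RPKM), well under the 0.6 RPKM threshold.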

Other observations

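Gene families that hold many members added further patterns. Of 54 keratin genes, 47 were unmarked in BEAS-2B cells and 15 were expressed in RT4 cells. KRT7, a simple-epithelial keratin, was marked at 7.15 RPKM with 4384 and 4779 TPM, alongside KRT8 and KRT18. KRT17, a keratin of basal and stressed epithelium, was intermediate at 1.93 RPKM with 654.6 and 759.8 TPM, and KRT13 was unmarked at 0.176 RPKM with 34.5 and 37.4 TPM. For 9 keratins, KRT20 and KRT23 among them, the promoter was listed at 0 RPKM.

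Of 73 replication-dependent histone genes, 44 were marked but 31 were expressed (median 4.12 RPKM and 1.00 TPM), and 12 were unmarked, none of these expressed. HIST1H1C, a linker histone, had the highest expression among them, 68.6 and 100.0 TPM, at 5.13 RPKM. HIST1H2BN and HIST1H3J were marked at 8.92 and 3.32 RPKM and listed at 0 TPM. HIST2H3A and HIST2H3C, near-identical copies, were listed at 0 in both assays, where the counting of reads between copies is uncertain. Whether transcripts without a poly(A) tail were kept in the RT4 libraries was not tested.

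Zinc finger genes (ZNF) were marked in 367 of 523 cases and expressed in 431, with a median of 4.71 RPKM and 6.23 TPM. Of 374 olfactory receptor genes, none was marked and 3 were expressed. Of 69 cancer-testis antigen genes, none was marked and none was expressed, with a highest level of 0.405 RPKM and a highest mean of 0.985 TPM. Promoters listed at 0 RPKM were 16 of these 69 and 39 of the 374 olfactory receptor genes, against 904 of 24657 joined genes. Whether reads were lost between similar copies was not tested.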
